A study of Mus musculus with 12 samples.

Results

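The 10 microglia marker genes *Aif1*, *Csf1r*, *P2ry12*, *Tmem119*, *Cx3cr1*, *C1qa*, *C1qb*, *C1qc*, *Trem2* and *Tyrobp* were followed in cultures of oligodendrocyte precursor cells (OPCs). They were chosen by symbol, and all 10 were listed in both tables, among 45563 symbols used. Across 12 libraries the 10 genes together had 465 reads, of which 366 were from *P2ry12*, 55 from *Csf1r* and 44 from the other 8 genes. In each library they summed to between 21 and 60 reads, against 220900 to 295297 reads for 10 OPC markers in the same library. Only *P2ry12* was above the filter of the test, and no member was called in any comparison of genotype or cytokine stimulation.

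Microglia are the resident macrophages of the brain parenchyma. Their survival depends on the receptor encoded by *Csf1r*, whose ligands are colony-stimulating factor 1 (*Csf1*) and interleukin 34 (*Il34*), and they receive fractalkine (*Cx3cl1*) from neighboring cells through the receptor encoded by *Cx3cr1*. *P2ry12* encodes an ADP receptor that guides microglial processes towards injury, *Trem2* a lipid receptor that signals through the adaptor encoded by *Tyrobp*, *C1qa*, *C1qb* and *C1qc* the chains of complement C1q, *Aif1* the cytoplasmic protein IBA1, and *Tmem119* a transmembrane protein used to tell microglia from other macrophages. In glial cultures these genes are commonly measured to see how much microglial RNA is present.

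OPCs were isolated from cortices of C57BL/6 pups, either WT or with a germline deletion of TNFR2 (TNFR2-/-), by anti-PDGFRα magnetic beads, and were kept for 3 days *in vitro* in medium with PDGF-AA and FGF2. The sample labels put the pups at postnatal days 2 to 5. The non-stimulated cultures (NS) received vehicle, and the stimulated ones (St) a mixture of TNF, IFNγ and IL1β at 25 ng/mL each for 3 h. Each of the 4 groups, WT NS, WT St, TNFR2-/- NS and TNFR2-/- St, held 3 libraries, with numbers 2, 3 and 4 in WT and 2, 4 and 5 in TNFR2-/-. An NS and a St library of the same genotype with the same number are called a culture below, since they deviated together from their group means. Nothing in the sources used here states how many pups went into a culture, so p-values measure the spread between these libraries.

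Library totals lay between 26886878 and 30335265 reads. The values were given as FPKM, from which whole reads could be recovered, and "reads" are these recovered read pairs throughout. The targeted gene, *Tnfrsf1b*, was at 12 to 24 reads (WT NS), 61 to 145 (WT St), 213 to 346 (labelled TNFR2-/- NS) and 282 to 356 (labelled TNFR2-/- St), so that it was higher, not lower, in the libraries labelled TNFR2-/-. Genotype is therefore given as labelled. The 8 astrocyte markers summed to 84790 to 137397 reads in the 6 libraries labelled TNFR2-/- and to 53675 to 67217 in the 6 WT libraries, without overlap, and culture 5 of TNFR2-/- was the highest, with 10491 *Gfap* reads in NS and 10010 in St against 251 to 1926 in the other 10 libraries.

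RefSeq promoters (GRCm38.p6, 250 bases before to 50 after the start) were given for 6 of the 10 genes. They were searched on both strands for the letters GAGGAA, the box bound by PU.1, the transcription factor that specifies myeloid cells and is encoded by *Spi1*, for the interferon-stimulated response element (GAAA, any 2 bases, GAAA), to which factors such as IRF8 can contribute, and for the gamma-activated site TTCNNNGAA. The PU.1 letters were present in 4 of the 6 (*Aif1*, *C1qb*, *C1qc* and *Trem2*) and in 28.3% of all 27025 promoters. The response element was present in *Aif1* alone and in 3.49% of all promoters, and the gamma-activated site in none of the 6 and in 8.47% of all promoters. The first sequence is that of the member with the most reads, in which none of the 3 motifs was found, and the second that of the member in which both of the first 2 were found. Capitals mark the response element, starting at position -157 from the gene's start, and the PU.1 letters on the reverse strand, at position -7. The windows are chr3:59262936-59263235 and chr17:35176003-35176302, both on the minus strand.
P2ry12: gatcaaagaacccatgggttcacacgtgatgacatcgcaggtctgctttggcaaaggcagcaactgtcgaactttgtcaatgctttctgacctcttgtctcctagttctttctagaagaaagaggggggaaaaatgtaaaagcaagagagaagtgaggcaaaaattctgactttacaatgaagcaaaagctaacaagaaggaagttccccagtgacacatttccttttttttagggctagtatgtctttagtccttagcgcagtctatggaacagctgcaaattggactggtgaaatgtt
Aif1: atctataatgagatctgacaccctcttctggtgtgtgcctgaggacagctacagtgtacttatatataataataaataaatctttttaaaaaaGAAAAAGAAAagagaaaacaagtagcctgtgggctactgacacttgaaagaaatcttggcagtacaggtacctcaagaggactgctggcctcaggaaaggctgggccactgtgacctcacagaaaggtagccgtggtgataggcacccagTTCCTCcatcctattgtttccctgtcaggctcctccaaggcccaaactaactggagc

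*P2ry12* was the only one of the 10 genes with more than 10 reads in a library. Its gene (ENSMUSG00000036353.13) lies on the minus strand of chromosome 3 at 59216272 to 59262871 (GRCm38, GENCODE M21). In WT NS it had 46, 16 and 32 reads in cultures 2, 3 and 4, and in WT St 39, 24 and 25 reads. In the libraries labelled TNFR2-/- it had 21, 35 and 40 reads in NS cultures 2, 4 and 5, and 19, 25 and 44 in St. The 4 groups overlapped across nearly their whole range, with means of 3.01 ± 1.32, 2.76 ± 0.79, 2.99 ± 0.91 and 2.82 ± 1.34 FPKM (SD, n = 3) in WT NS, WT St, TNFR2-/- NS and TNFR2-/- St. By total reads over all libraries, 29.4% of the symbols had more reads than *P2ry12*.

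*Csf1r* was the only other gene of the 10 with reads in all 12 libraries. It had 2, 3 and 7 reads in WT NS, 3, 9 and 4 in WT St, 4, 6 and 3 in TNFR2-/- NS and 5, 4 and 5 in TNFR2-/- St. The sums per group were 12, 16, 13 and 14 reads, and their 95% Poisson intervals overlapped, for instance 6.2 to 21 in WT NS and 9.15 to 26 in WT St. Of its 5774 annotated exon bases 873 (15.1%) are shared with *Hmgxb3* on the opposite strand, which had 924 to 1301 reads per library, and as the sources used here do not say that reads were counted by strand, reads of the 2 genes over the shared bases cannot be told apart.

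*Cx3cr1*, the fractalkine receptor, had 2 reads in WT NS culture 2, 1 read each in WT St cultures 3 and 4 and in both libraries of TNFR2-/- culture 4, and 0 in the other 7 libraries. Its annotated span on the minus strand of chromosome 9, from 119901616 to 120069879, overlaps several other genes but shares no exon bases with the 5 examined. *Trem2*, on chromosome 17 at 48346401 to 48354147 (plus strand), had 4 reads in WT NS culture 2 and 1 in WT NS culture 3, and was at 0 in the other 10 libraries. Its adaptor *Tyrobp*, on chromosome 7 at 30413760 to 30417585 (plus strand), was above 0 in WT NS culture 3 alone, at 0.572 FPKM, which corresponds to 1 read as the fewest whole reads possible. A library at 0 reads still allowed a level of up to 0.0989 to 0.112 CPM (reads scaled to the library total), the value of 3 reads in that library, which covers counting error only.

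The 3 chains of C1q lie side by side on the minus strand of chromosome 4, from 136880129 to 136898803. *C1qa* had 1 read in WT NS culture 2, 2 in TNFR2-/- NS culture 5 and 1 in TNFR2-/- St culture 5. *C1qb* had 1 read in each of 4 libraries, namely WT NS culture 4, WT St culture 2, and both libraries of TNFR2-/- culture 5. *C1qc* had 2 reads in WT NS culture 2 and 1 in WT NS culture 4. All other libraries were at 0 for the chain concerned, so no library had more than 2 reads of any C1q chain.

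*Aif1* (chromosome 17, 35170991 to 35176068, minus strand) had 2 reads in WT NS culture 4, 1 in each of WT St culture 3, TNFR2-/- NS culture 5 and TNFR2-/- St culture 2, and 0 in the remaining 8 libraries. *Tmem119* (chromosome 5, 113793729 to 113800516, minus strand) reached the most reads of any member after *P2ry12* and *Csf1r*, with 3, 0 and 1 in WT NS, 6, 1 and 0 in WT St, 0, 1 and 2 in TNFR2-/- NS and 2, 0 and 0 in TNFR2-/- St. Of the 108 values that the 9 genes other than *P2ry12* have in 12 libraries, 68 were 0, 30 were 1 to 3 reads and 10 were above 3 reads.

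**Figure D1:**
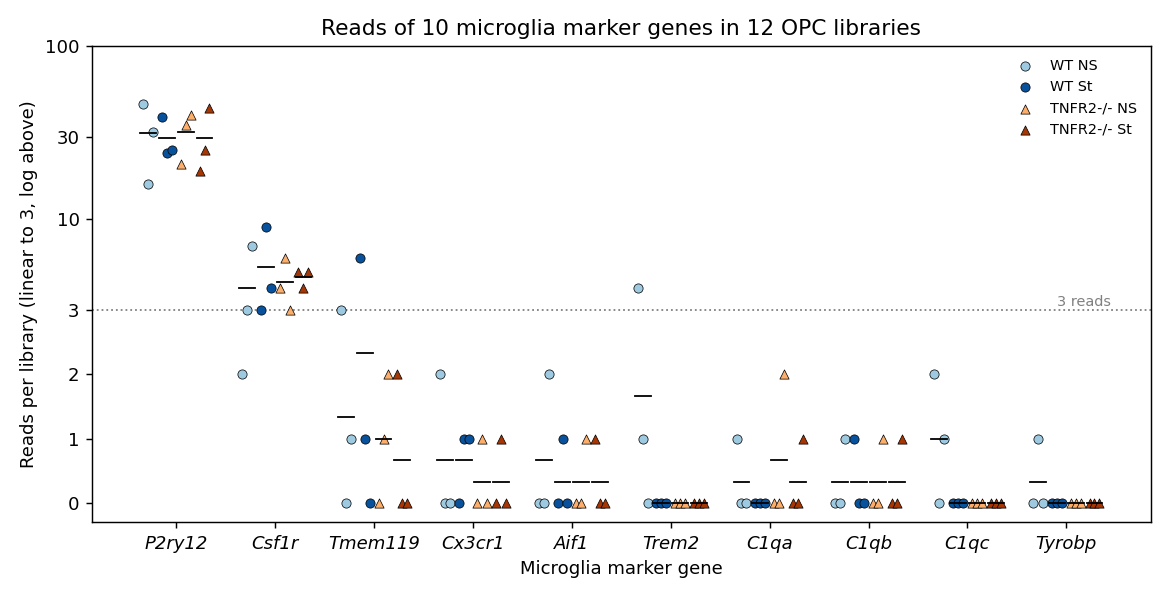
Reads of each of the 10 genes in each library (vertical axis linear up to 3 reads and logarithmic above), ordered by their total, with 1 point per library and a bar at each group's mean. *P2ry12* lies between 16 and 46 reads in all 12 libraries, *Csf1r* between 2 and 9, and the other 8 genes at 0 to 6, with 0 the commonest value.

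Levels can be set between genes only per length of transcript. The bases by which the authors divided were unrelated to annotated length (Spearman 0.01 across 16010 genes), so that FPKM as given do not rank these genes. *Tyrobp*, for instance, was divided by 65 bases and *C1qb* by 7937. As RPKM recomputed from the reads and the annotated exon length, the mean levels over 12 libraries were 0.402 for *P2ry12*, 0.0267 for *Csf1r*, 0.0191 for *Tmem119*, 0.0107 for *C1qa*, 0.0103 for *C1qb* and 0.00905 for *Aif1*. *Tyrobp* followed at 0.00465, *C1qc* at 0.00431, *Cx3cr1* at 0.00369 and *Trem2* at 0.00287 on the same scale. The lowest library of *P2ry12* (0.234) was above the highest library of every other member, the nearest being *Tmem119* at 0.0861. The other 9 genes overlapped each other in range, so their order is not separated by the spread between libraries.

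The summed level was 2.0, 0.781 and 1.47 CPM in WT NS cultures 2, 3 and 4, and 1.63, 1.20 and 0.997 in WT St. In the libraries labelled TNFR2-/- it was 0.831, 1.42 and 1.62 in NS cultures 2, 4 and 5, and 0.899, 0.992 and 1.78 in St. The group means were 1.42 ± 0.61, 1.27 ± 0.32, 1.29 ± 0.41 and 1.22 ± 0.48 (SD, n = 3) in WT NS, WT St, TNFR2-/- NS and TNFR2-/- St, and every group overlapped every other. *P2ry12* made up 66.7% to 86.3% of these reads in each library. Without it the 3 libraries of a group had 31 reads in WT NS, 27 in WT St, 21 in TNFR2-/- NS and 20 in TNFR2-/- St. As bulk RNA was measured, fewer cells of a type and less RNA per cell cannot be told apart.

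The comparison of TNFR2-/- NS with WT NS asked whether the labelled genotype goes with a different level of these genes before cytokines. In limma on log2(FPKM + 0.5) over the 18081 genes whose mean reached 0.1 FPKM, *P2ry12* was the only member past the filter, and it had a log2 fold change of 0.03 ± 0.35 (SE; adjusted p = 0.973), with a 95% interval of 0.596 to 1.75-fold. Thus 0 of 10 members were called, where 2.9% of all genes tested were called. Only *P2ry12* could be called in this and the following comparisons, as the other members were not tested. A call required an adjusted p no higher than 0.05, a change of 1.5-fold or more and a mean of 1 FPKM or more. After cytokines, TNFR2-/- St against WT St gave *P2ry12* a log2 fold change of -0.02 ± 0.35 (limma, adjusted p = 0.98), with an interval of 0.576 to 1.69-fold, and again 0 members were called against 1.8% of genes.

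Stimulation was compared within each genotype. In WT St vs WT NS the log2 fold change of *P2ry12* was -0.06 ± 0.35 (limma, adjusted p = 0.949; interval 0.56 to 1.64-fold), and 0 members were called, against 7.53% of genes. In TNFR2-/- St vs TNFR2-/- NS it was -0.11 ± 0.35 (limma, adjusted p = 0.856; interval 0.542 to 1.59-fold), and 0 members were called, against 10.1% of genes. The interaction of genotype and stimulation was -0.05 ± 0.49 for *P2ry12* (limma, adjusted p = 0.995), with 0 members and 0.00553% of genes called. Changes inside these intervals remain possible under this fit, which did not pair the NS and St libraries of a culture. Values with the culture as a replicate block are given in the last section. The 4 comparisons share libraries and are not independent of each other.

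The filter kept 9 members out of these tests because of their low FPKM, which depend on the divisor of each gene as well as on its reads. When every gene with a read was fitted, 0 of 10 members reached an adjusted p of at most 0.05 in limma, and the number with an unadjusted p under 0.05 was 1 in each of TNFR2-/- NS vs WT NS and WT St vs WT NS and 0 in the other 3 comparisons. That member was *C1qc*, whose 3 reads were all in WT NS (adjusted p = 0.164 and 0.163 by limma). With limma-voom on the recovered reads, *C1qc* and *Trem2* had unadjusted p-values under 0.05 in these same 2 comparisons and in the interaction, with a lowest adjusted p of 0.107. *Trem2*, *C1qc* and *Tyrobp* thus had reads in WT NS libraries alone, without passing the test. They had 9 reads in all, with *Tyrobp* taken at the fewest whole reads possible.

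The *P2ry12* levels of the NS and St libraries were also set side by side for each culture. The 2 cultures with the most reads, WT culture 2 (46 in NS and 39 in St) and TNFR2-/- culture 5 (40 and 44), were the highest in both conditions, and WT culture 3 (16 and 24) and TNFR2-/- culture 2 (21 and 19) were the lowest. Over 6 cultures, the NS and St levels in CPM had a Pearson r of 0.78 (two-sided exact permutation p = 0.0556) and a Spearman rho of 0.83 (exact permutation p = 0.0583), with 0.0583 for each after Benjamini-Hochberg adjustment over both measures, so that the relation did not pass 0.05. Without the 2 cultures farthest from the median NS level, r was 0.81. The 2 high cultures differed in astrocyte RNA, with 532 and 1049 *Gfap* reads in WT culture 2 and 10491 and 10010 in TNFR2-/- culture 5, and the part of astrocytes in the *P2ry12* level was not tested. The NS and St libraries of a culture differed by 0.214 CPM on average, and different cultures of a group by 0.492 over 12 pairs. The cultures ranged from 40 reads over both libraries in each of WT culture 3 and TNFR2-/- culture 2 to 85 in WT culture 2.

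**Figure D2:**
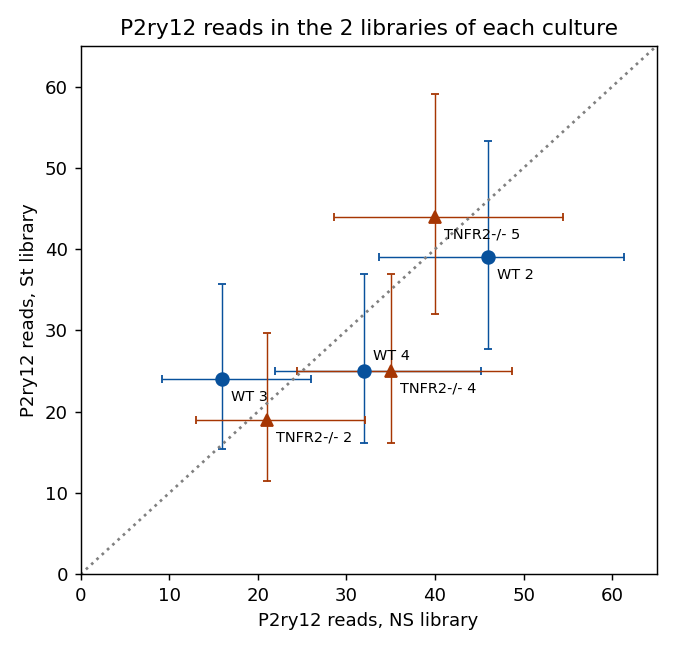
*P2ry12* reads in the NS library (horizontal axis) and the St library (vertical axis) of each of the 6 cultures, with exact 95% Poisson intervals that cover counting error only, circles for WT and triangles for TNFR2-/-, and a dotted line of equal reads. The points lie on both sides of the line, from 16 and 24 reads in WT culture 3 to 46 and 39 in WT culture 2. For each culture the St-to-NS ratio had an interval that includes 1.

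None of the 6 cultures had a *P2ry12* ratio of St to NS outside counting error. The ratio was 0.846 (95% exact interval 0.538 to 1.33) in WT culture 2, 1.34 (0.685 to 2.71) in WT culture 3 and 0.778 (0.442 to 1.36) in WT culture 4. In the libraries labelled TNFR2-/- it was 0.907 (0.461 to 1.77) in culture 2, 0.715 (0.41 to 1.23) in culture 4 and 1.16 (0.74 to 1.83) in culture 5. It was below 1 in 2 of 3 cultures of each genotype.

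The place of *P2ry12* in the genome bears on what its reads stand for. The gene lies within *Med12l*, which runs on the opposite strand, and 9 of its 2546 exon bases (0.353%) are also exonic in *Med12l*. *Med12l*, a subunit gene of the Mediator family, had 496 to 711 reads per library. Among other receptor genes inside *Med12l*, *P2ry13*, also an ADP receptor of microglia, had 0 to 2 reads per library, *P2ry14* 8 to 31 and *Gpr171* 0 to 7. These neighbors were chosen after their values were seen. Whether unspliced *Med12l* RNA was counted under *P2ry12* was not tested.

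Genes that other lists assign to microglia or to myeloid cells in general differed widely in level. Of 11 further genes of homeostatic microglia, *Fcrls* was at 0 in every library, and *Siglech*, *P2ry13* and *Cd33* had at most 3 reads in any. *Sall1*, a transcription factor, had 1627 to 2977 reads, and *Olfml3*, a secreted protein, 88 to 785. *Olfml3* was called higher on stimulation, by 1.14 ± 0.14 on the log2 scale in WT and 1.65 ± 0.14 in TNFR2-/- (limma, adjusted p = 0.000236 and 1.07e-05), 1 of the 3 genes of this list past the filter, where 4.58% and 5.41% of all genes were called higher. It was also called higher in TNFR2-/- St than in WT St, by 0.86 ± 0.14 (limma, adjusted p = 0.0156), where 1.18% of genes were. That call was lost under 4 of 27 alternatives, and the interaction had an adjusted p of 0.564 in limma. Of 20 genes shared by myeloid cells, 7 had at most 3 reads in every library, among them those for the leukocyte antigen CD45 (*Ptprc*, 0 to 2), PU.1 (*Spi1*, 0 to 2), cathepsin S (*Ctss*, 0 to 3) and the NADPH oxidase subunit *Cybb* (0 to 2). *Irf8*, *Cd14* and *Cd68* were the highest of these 20 per length.

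Some of these myeloid-named genes rose with cytokines while the 10 markers stayed at their low counts. *Irf8*, an interferon-responsive transcription factor, went from 19 to 22 reads in WT NS up to 11164 to 12405 in WT St, a log2 fold change of 8.15 ± 0.14 (limma, adjusted p = 1.25e-10), and in TNFR2-/- 33 to 54 and 12794 to 16384 reads, a change of 7.83 ± 0.14 (adjusted p = 2.19e-10). *Cd14*, the coreceptor for lipopolysaccharide, rose by 5.81 ± 0.26 in WT (adjusted p = 1.08e-07) and by 5.89 ± 0.26 in TNFR2-/- (adjusted p = 8.31e-08). *Mpeg1*, a pore-forming protein of macrophages, rose by 1.61 ± 0.30 and 2.07 ± 0.30 (adjusted p = 0.00384 and 0.000556). In WT St vs WT NS 3 of the 20 genes were called higher and 0 lower, of 9 past the filter, where 4.58% of all genes were called higher, with a median log2 fold change of 0.04 against -0.06 over all genes. In TNFR2-/- St vs TNFR2-/- NS 4 were called higher and 1 lower, with a median of 0.03 against -0.11, where 5.41% of all genes were called higher and 4.68% lower. Called here but not in WT were *Cd68*, at 0.92 ± 0.17 (limma, adjusted p = 0.00297), and *Coro1a*, at -0.62 ± 0.13 (adjusted p = 0.00658). In WT they had 0.05 ± 0.17 and -0.30 ± 0.13 (limma, adjusted p = 0.914 and 0.174). Their interactions with genotype had adjusted p-values of 0.496 and 0.73 in limma.

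Most border macrophage and blood leukocyte genes were also near 0. Of 8 border macrophage markers 5 had at most 3 reads in every library (*Pf4*, *Lyve1*, *F13a1*, *Ms4a7* and *Cbr2*), and the list summed to 12 to 34 reads per library. *Cd163* had 3 to 25 reads. *Siglec1* was at 0 reads in WT NS and 7 to 14 in WT St, and at 0 to 2 in TNFR2-/- NS and 7 to 9 in TNFR2-/- St. Of 11 blood leukocyte markers 10 had at most 3 reads, and *Ly6c2*, *S100a9*, *Cd3d* and *Ms4a1* were among those at 0 in every library. *Cd79a*, a B cell receptor subunit, was the exception, with 36, 79 and 80 reads in WT NS and 12, 34 and 5 in TNFR2-/- NS, a log2 fold change of -2.12 ± 0.57 (limma, adjusted p = 0.0425), where 1.28% of genes were called lower. This call was lost without WT NS 3, WT NS 4, any 1 of the WT St libraries, TNFR2-/- NS 2, TNFR2-/- NS 5 or TNFR2-/- St 2, at adjusted p-values of 0.0521 to 0.148.

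On the scale of RPKM by annotated exon length, the median over the list was 0.00967 for the 10 microglia markers and 0.0114 for the border macrophage markers. It was 0.324 for 8 endothelial, 0.209 for 8 mural and fibroblast, 2.34 for 8 neuronal, 5.81 for 8 oligodendrocyte, 32 for 8 astrocyte and 79.9 for 10 OPC markers. The highest OPC marker, *Olig1*, reached 701 and the lowest of these 10 reached 13.3, against 0.402 for *P2ry12*, the highest microglia marker. Per library, the 10 microglia markers had 0.00763% to 0.0217% as many reads as the 10 OPC markers. Each of the 10 OPC markers had reads in every library, beside those of astrocytes and oligodendrocytes.

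**Figure D3:**
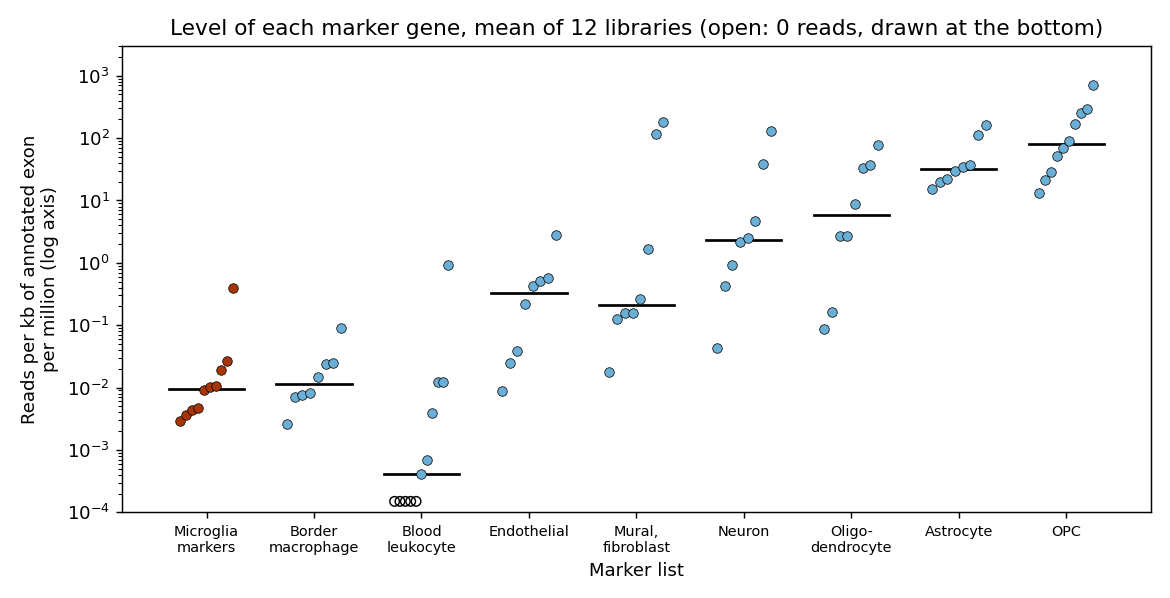
Mean level over 12 libraries of each gene of 9 cell type lists, as reads per kilobase of annotated exon scaled to the library total (RPKM) on a logarithmic axis, with 1 point per gene, a bar at the median of the list and open symbols at the bottom for genes at 0 reads. The microglia markers have a median of 0.00967 and the OPC markers one of 79.9.

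The ligands of the receptors encoded by *Csf1r* and *Cx3cr1* were abundant in the same libraries. *Csf1* had 2301, 1432 and 2510 reads in WT NS and 13311, 8727 and 12441 in WT St, where *Csf1r* had 2 to 9. It rose by 2.38 ± 0.22 on the log2 scale in WT (limma, adjusted p = 3.29e-05) and by 2.06 ± 0.22 in TNFR2-/- (adjusted p = 7.37e-05). *Cx3cl1* rose from 7579 to 8108 reads in WT NS up to 30884 to 32038 in WT St, where *Cx3cr1* had 0 to 2, a change of 1.94 ± 0.11 in WT (limma, adjusted p = 6.16e-07) and of 2.13 ± 0.11 in TNFR2-/- (adjusted p = 2.82e-07). *Il34*, the second ligand of CSF1R, had 132 to 292 reads, with log2 fold changes of 0.05 ± 0.23 (adjusted p = 0.926) and -0.35 ± 0.23 (adjusted p = 0.308) on stimulation by limma.

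C1q is the recognition part of complement C1 and works with the proteases C1r and C1s. In contrast to the 3 C1q chains, at 0 to 2 reads, *C1ra* was at 14 to 26 reads in WT NS against 295 to 345 in WT St, and *C1s1* 9 to 19 and 261 to 433. All 6 partners listed, *C1ra*, *C1s1*, *C2*, *C4b*, *C3* and the C1 inhibitor gene *Serping1*, were called higher on stimulation in WT, against 4.58% of all genes called higher, and all 6 in TNFR2-/-, against 5.41%. The median log2 fold change of the 6 was 2.33 in WT and 2.98 in TNFR2-/-, against -0.06 and -0.11 over all genes tested. The largest were *C3*, the central component, at 3.70 ± 0.40 in WT (limma, adjusted p = 9.75e-05) and *Serping1* at 3.05 ± 0.20 (adjusted p = 2.13e-06). These are differences of log2(FPKM + 0.5), which understate the change of genes near 0 in NS. *C1ra* and *C1s1* were called higher in TNFR2-/- St than in WT St, by 0.99 ± 0.19 (adjusted p = 0.0253) and 0.91 ± 0.23 (adjusted p = 0.0488), where 1.18% of genes were called higher. The 8 astrocyte markers had a median log2 fold change of 0.80 in the same comparison, against -0.003 over all genes tested, with *Slc1a2* and *Slc1a3* called higher, and their part in the difference of *C1ra* and *C1s1* was not tested. Without any 1 of the WT St libraries or TNFR2-/- St 2 neither call held (adjusted p of 0.0519 to 0.164), and that of *C1s1* was also lost without TNFR2-/- St 5 (0.153), TNFR2-/- NS 2 (0.0657) or any 1 of the WT NS libraries. Their interaction with genotype had adjusted p-values of 0.502 and 0.77 in limma, so that a different response was not shown.

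**Figure D4:**
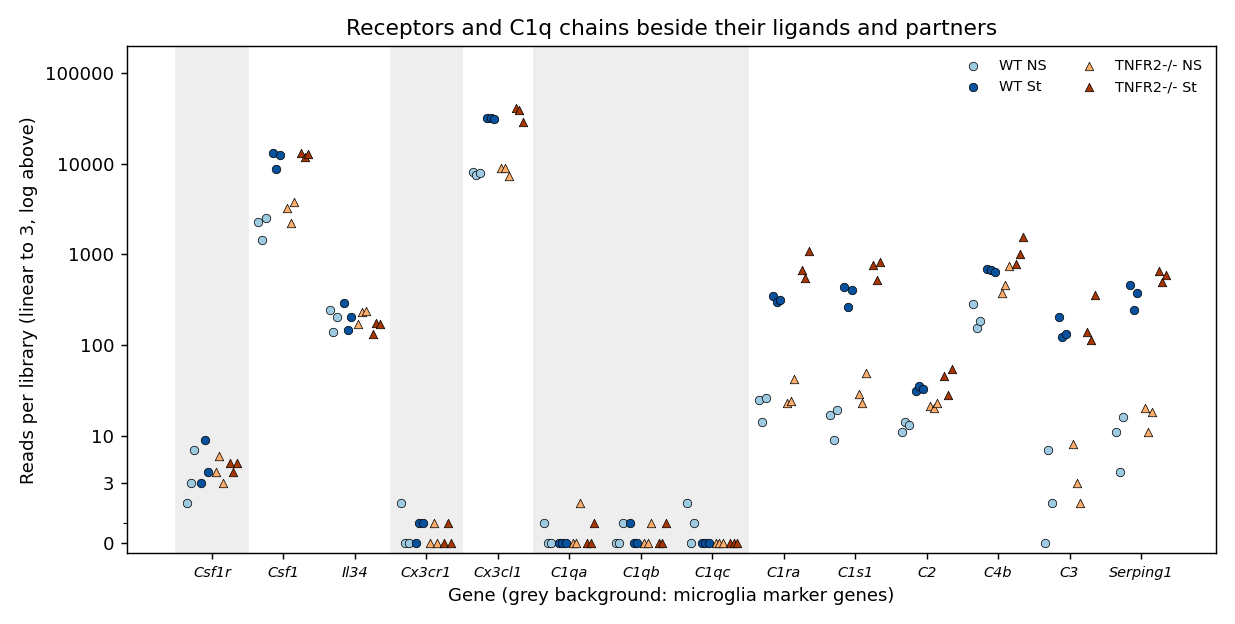
Reads per library (linear up to 3 reads, logarithmic above) of 5 of the 10 markers, on grey, beside the ligands of *Csf1r* and *Cx3cr1* and the complement partners of C1q, by group. The markers stay at 0 to 9 reads in all 12 libraries, whereas *Cx3cl1* lies at 7286 to 41173 and *C1ra* goes from 14 to 42 in NS to 295 to 1102 in St.

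Downstream of *Trem2* and *Tyrobp*, most of the signalling genes listed are not restricted to microglia. Of 10, *Vav1*, *Btk* and *Hcst* had at most 3 reads per library, while *Grb2*, a widely used adaptor, had 2597 to 3435 and *Syk*, the kinase recruited by TYROBP, 22 to 46. *Pik3cd*, a PI3-kinase subunit, was the only gene called higher on stimulation, by 2.81 ± 0.11 in WT and 3.60 ± 0.11 in TNFR2-/- (limma, adjusted p = 5.58e-08 and 1.09e-08). This was out of 8 past the filter, where 4.58% and 5.41% of all genes were called higher. *Pik3cd* was also called higher in TNFR2-/- St than in WT St, by 0.86 ± 0.11 (limma, adjusted p = 0.00963), where 1.18% of genes were. Its interaction with genotype had an adjusted p of 0.493 in limma. *Inpp5d*, the phosphatase SHIP1, had 0 to 2 reads in NS, 16 to 31 in WT St and 27 to 71 in TNFR2-/- St, at least 7.79-fold and at least 18.4-fold higher against 3 reads per library. Its adjusted p-values were 0.0278 and 0.000678 in limma, and it was not called because its mean was 0.273 FPKM. Of 12 genes of the phagocytic state that TREM2 supports, 11 were among the symbols used and 9 passed the filter, and *Apoe*, *Ctsd* and *Cd9* were the highest, with *Apoe* at 9425 to 40312 reads, its 2 highest libraries being those of TNFR2-/- culture 5. *Gpnmb*, a glycoprotein of phagocytes, was called higher in TNFR2-/- NS than in WT NS, by 0.67 ± 0.19 (limma, adjusted p = 0.0496), a call lost under 18 of 27 alternatives, and *Spp1*, osteopontin, on stimulation in TNFR2-/-, by 1.88 ± 0.55 (adjusted p = 0.0282), lost under 6 of 27. In WT *Spp1* had a log2 fold change of 1.41 ± 0.55 (limma, adjusted p = 0.118), and its interaction with genotype had an adjusted p of 0.942. *Cst7* was at 0 throughout and the integrin gene *Itgax* at 0 to 2.

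Among 5 other genes of purine signalling, *P2rx7*, an ATP-gated channel, had 1184 to 2197 reads, *Entpd1*, which degrades ATP, 238 to 416, and *Adora3* none. *P2ry6*, a UDP receptor, was called higher on stimulation in both genotypes, at 2 to 9 reads in WT NS against 20 to 49 in WT St, a log2 fold change of 1.51 ± 0.32 (limma, adjusted p = 0.00895), and 2.43 ± 0.32 in TNFR2-/- (adjusted p = 0.000328). Over the same libraries *P2ry12* stayed between 16 and 46 reads. Of 10 genes of activated myeloid cells, mostly of cytokines and receptors, 9 were found by the symbol searched. The remaining gene, *Acod1*, is held under its earlier symbol *Irg1*, and its result is not given here. Of the 9, *Il1b* had at most 1 read, *Clec4e* none and *Il10* at most 1. *Ccl4* was at 0 in all NS libraries and at 10 to 41 reads in WT St and 20 to 85 in TNFR2-/- St, at least 7.58-fold and at least 17.3-fold higher against 3 reads per library. *Tnf* was at 0 or 1 reads in NS and at 10 to 25 in St. Neither was called, their means of 0.382 and 0.165 FPKM being below the 1 FPKM a call required, and *Ccl4* in WT also had an adjusted p of 0.0655 in limma. This threshold depends on the bases by which each gene was divided as well as on its reads. *Syk*, for instance, at 22 to 46 reads, had a mean of 104 FPKM.

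The genes whose log2(FPKM + 0.5) was most like the summed level of the 10 markers over 12 libraries, among 13553 non-member genes with a mean of 1 FPKM or more, were *Gm15473*, *Fzd6*, *Serpinf1*, *Mob3b*, *Ppap2c*, *Rnase4*, *Gng11*, *Ttyh1*, *Cldn11* and *Cercam*, with r from 0.75 to 0.82. After group means were removed they were *Pgd*, *Tex264*, *Gm15473*, *Dph6*, *Hdgfrp2*, *Cthrc1*, *Susd6*, *Msx2*, *Fah* and *Gbp7*, with r from 0.90 to 0.96. *Gm15473* (5 to 22 reads) was in both lists, and no myeloid gene of the lists above was in either. These are descriptions over 12 libraries of 6 cultures that share depth and culture, and they follow *P2ry12*, which supplied most of the summed reads. The genes were picked as the highest r among 13553, and no level of r for such a pick was computed.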

How the data were processed

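RNA-seq of 12 OPC libraries in 4 groups was analyzed from 2 tables of FPKM. Trimming with Trim Galore, alignment to GRCm38 and counting with STAR on the Ensembl annotation, and calls with EdgeR were done by the authors, whose deposited FPKM are counts scaled to the library total and to a length that was set for each gene. The methods name a BGISeq-500 and the labels Illumina protocols. Each of the 2 tables held 45792 entries, and 229 entries that share 99 symbols were left out. Read pairs were recovered as whole multiples of the smallest FPKM step (whole within 0.01 read for 26635 of 26636 genes above 0 in at least 2 libraries). Where several divisors gave whole reads, the fewest reads were taken, so reads of genes above 0 in few libraries are minima. Positions and exon lengths came from GENCODE M21, with 41762 symbols matched to 1 gene.

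The members and gene lists were chosen with earlier results of these data known. All 10 members are named. Genes named from the other lists were called genes with the largest changes (up to 3 per comparison), the 3 highest genes per length and markers at 0, and further genes were chosen after their values were seen. The fit used limma 3.58.1 (R 4.3.3) on log2(FPKM + 0.5), as 4 group means with a mean-dependent prior, on genes whose mean reached 0.1 FPKM, with Benjamini-Hochberg adjustment over all of them. The fit was tested on simulated data. A call required an adjusted p no higher than 0.05, a change of 1.5-fold or more and a mean of 1 FPKM or more. CPM and RPKM were recomputed from the recovered reads, and summed levels were not tested. Intervals are exact 95% Poisson or binomial ones. Python 3.11.15, pandas 2.3.3, scipy 1.17.1 and matplotlib 3.10.9 were used. Within a genotype, NS and St libraries of the same number correlated at 0.34 to 0.65 over 13554 genes after group means were removed (6 pairs), and those of other numbers at -0.45 to 0.09 (12 pairs). Across genotypes the same number gave -0.06 to 0.2 (4 pairs), so the numbers pair the libraries of a culture and do not pair genotypes. Alternatives were other pseudocounts, filters, scalings, priors, weights, thresholds, replicate blocks, fits of 2 groups, voom on recovered reads and each library left out. Leaving out both libraries of TNFR2-/- culture 5 and voom without a filter were chosen after seeing the data. The results for 3 genes of the lists and neighbors are not reported here.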

Additional observations from a re-analysis of the deposited data

How the results depend on the processing

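In each of the 5 comparisons 0 members were called under every alternative run (27 for each comparison of groups, 26 for the interaction), the replicate block included. Only *P2ry12* could have been called under them. The means of the other 9 members were below the 0.1 FPKM of the filter and the 1 FPKM that a call required. With the culture as a replicate block *P2ry12* had adjusted p-values of 0.972 and 0.979 between genotypes in NS and in St, 0.866 and 0.704 for stimulation in WT and in TNFR2-/-, and 0.949 in the interaction, and the block changed no call of a member. Over all alternatives its log2 fold change ranged from -0.41 to 0.30, -0.46 to 0.21, -0.37 to 0.21 and -0.42 to 0.12 in the same 4 comparisons, with a lowest adjusted p of 0.32. The number of all genes called ranged from 7 to 1964 around 524 between genotypes in NS, from 39 to 985 around 325 in St, from 1203 to 2903 around 1361 for stimulation in WT and from 1558 to 4695 around 1824 in TNFR2-/-, and from 0 to 68 around 1 in the interaction. The summed level, with means of 1.42, 1.27, 1.29 and 1.22 CPM in WT NS, WT St, TNFR2-/- NS and TNFR2-/- St, became 0.351, 0.299, 0.231 and 0.225 without *P2ry12*, and 3.40, 2.88, 3.08 and 2.90 as summed FPKM, both by construction. With 1 library left out it ranged from 1.12 to 1.73, 1.10 to 1.41, 1.12 to 1.52 and 0.946 to 1.38. The cause of changes in the counts of calls was not tested, other than for the alternative with the adjusted p alone, which drops the fold and mean thresholds. The calls of *Csf1*, *Cx3cl1*, *Irf8*, *Cd14*, *C3* and *Serping1* on stimulation held under all 27 alternatives, and those of *C1ra* and *C1s1* between stimulated genotypes were lost under 5 and 14 of 27. With 9 of 10 members at 9 reads or fewer in every library, small changes of these genes were not measurable at this depth.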
